A study of Mus musculus with 2 samples.

Results

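The cell cycle regulators described here are 46 mouse genes for cyclins, cyclin-dependent kinases (CDKs), CDK inhibitors, the Rb family, the E2F factors and proteins of mitotic entry and the spindle checkpoint, together with Mki67 and Trp53. They were listed by gene symbol and role, with no threshold on their values, and all 46 were matched by Ensembl identifier among the 43346 mouse genes of the gene tables. The tissue was neural tube, the embryonic structure that gives rise to brain and spinal cord, from B6NCrl mouse embryos at embryonic day 12.5. The design holds 1 group of 2 biological replicates and no second tissue, stage or treatment. The first pool (replicate 1) held tissue of 120 embryos and the second (replicate 2) that of 88, both pools held males and females, and both carry the same donor identifier. No allele, transgene or agent is named in the labels. For each total RNA-seq library, 10 ng of RNA was used, of over 200 nucleotides in length. The mouse genes received 31610805 expected counts (reads assigned to genes, estimated where they are ambiguous) in replicate 1 and 33530172 in replicate 2. With 2 libraries of 1 group, values are given per library or as mean ± SD (n = 2), and no p-value is given.

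As background, cyclins bind and switch on CDKs, and the pairs follow each other through the division cycle. D cyclins with Cdk4 or Cdk6, and then E cyclins with Cdk2, phosphorylate the pocket proteins Rb1, Rbl1 and Rbl2, which releases E2F factors to switch on genes of DNA synthesis. A and B cyclins with Cdk1 drive entry into mitosis, and destruction of B cyclins by the anaphase-promoting complex ends it. In the embryonic neural tube, dividing progenitors line the ventricle while cells that have left the cycle move outward and differentiate, so the tissue holds cycling and arrested cells side by side. In such bulk RNA, fewer cells of a type and less RNA per cell cannot be told apart.

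The tissue label was set against marker genes. All 6 neural progenitor markers (Sox2, Nes, Pax6, Hes5, Vim and Fabp7) and all 6 neuron markers were detected, meaning 1 TPM or more in both libraries. TPM is a level corrected for transcript length and depth. The summed progenitor markers stood at 2940 TPM in replicate 1 and 3023 TPM in replicate 2, and the neuron markers at 2700 and 3018 TPM. All markers of red cells (8), endothelium (6), skeletal muscle (6), pericytes and meninges (6) and sensory ganglia (6) were detected too, as were 5 of 6 macrophage markers. The summed red cell markers stood at 6967 TPM in replicate 1 and 6895 TPM in replicate 2, above either neural list. Hbb-y alone stood at 5432 and 5298 TPM. Lower were the sums for pericytes and meninges (884 and 909 TPM), sensory ganglia (425 and 601.5 TPM) and skeletal muscle (320.4 and 235 TPM). Endothelium (184 and 187 TPM) and macrophages (65.35 and 71.9 TPM) were lowest. The levels below are therefore those of the whole dissected tissue.

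Promoter stretches of 6 members are shown first because they carry the sequence words counted after them. CCAAT boxes are known to bind the factor NF-Y, cell cycle homology regions the DREAM complex, and E-boxes factors of the Myc family. RefSeq windows on GRCm38.p6, from 250 bases before to 50 bases after an annotated start, were at hand for 36 of the 46 members (42 windows). Ccna2, Ccnd1, Ccnd2, Ccne2, Rb1, E2f4, E2f5, Cdc25c, Wee1 and Aurkb were not matched. Cdk1, Ccnb2, Ccnf, Cdc20 and Aurka act in G2 and mitosis, and Cdk4 acts in G1. Each line gives up to 150 bases before the start, 5′ to 3′ on the gene's strand, without bases that GENCODE M21 counts as exon. Capitals mark the CCAAT box (CCAAT, or ATTGG where it lies on the other strand), the cell cycle homology region (CHR; TTTGAA or TTCGAA on either strand) and the E-box (CACGTG).
Cdk1, chr10:69352939-69353062, minus strand: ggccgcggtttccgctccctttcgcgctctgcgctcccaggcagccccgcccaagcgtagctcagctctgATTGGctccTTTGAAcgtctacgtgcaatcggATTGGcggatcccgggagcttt
Ccnb2, chr9:70421555-70421704, minus strand: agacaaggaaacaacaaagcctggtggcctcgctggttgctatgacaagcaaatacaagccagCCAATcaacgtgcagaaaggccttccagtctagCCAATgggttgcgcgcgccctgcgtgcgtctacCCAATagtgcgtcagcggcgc
Ccnf, chr17:24251485-24251559, minus strand: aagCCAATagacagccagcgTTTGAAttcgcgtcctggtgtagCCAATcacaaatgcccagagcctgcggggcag
Cdc20, chr4:118437353-118437493, minus strand: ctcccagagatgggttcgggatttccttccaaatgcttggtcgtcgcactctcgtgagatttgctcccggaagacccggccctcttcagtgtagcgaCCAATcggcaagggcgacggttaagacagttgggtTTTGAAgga
Aurka, chr2:172370571-172370680, minus strand: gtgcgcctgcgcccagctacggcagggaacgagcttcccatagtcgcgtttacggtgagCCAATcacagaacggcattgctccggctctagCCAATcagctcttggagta
Cdk4, chr10:127063385-127063533, plus strand: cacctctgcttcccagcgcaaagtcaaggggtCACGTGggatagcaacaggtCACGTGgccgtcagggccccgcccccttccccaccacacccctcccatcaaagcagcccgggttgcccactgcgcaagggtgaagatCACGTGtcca

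CCAAT boxes stood in 26 of the 42 member windows (61.9%), against 37.4% of all 32851 windows in the table. The CHR words stood in 16 member windows (38.1%), against 19.2% of all windows. E2F words, searched on either strand as TTCCCGC, as TTGGCGC, as TTCGCGC and as TTGCCGC, stood in 12 (28.6%), against 9.57%. Among the 21263 windows of protein-coding genes, 38.2% held a CCAAT box, 17.6% a CHR word and 12.1% an E2F word. In 2 member windows an E2F word and a CCAAT word overlapped, since TTGGCGC can share letters with ATTGG.

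The 12 members of G2 and mitosis with a window were Cdk1, Ccnb1, Ccnb2, Ccnf, Cdc20, Cdc25b, Plk1, Aurka, Bub1, Bub1b, Mad2l1 and Mki67. Of their 12 windows, 11 held a CCAAT box (91.7%) and 10 held a CHR word (83.3%). A pair of CCAAT boxes whose starts lay 31 to 33 bases apart stood in 4 of the 12 (33.3%; Cdk1, Ccnb1, Ccnb2 and Aurka), against 0.971% of all windows. Among protein-coding windows the share was 1.22%. Of all 42 member windows 5 (11.9%) held such a pair, that of E2f7 being the one outside this group. The 6 windows of the G1 members Ccnd3, Ccne1, Cdk2, Cdk4 and Cdk6 held a CCAAT box in 2 and a CHR word in 0. These shares, 33.3% and 0%, stand beside 37.4% and 19.2% of all windows, and 6 windows make them coarse. Cdk4 had 4 E-boxes in its window, a number that 8 of all 32851 windows reached, while 7.15% of all windows held any. Cdc25a, whose window holds 2 CCAAT boxes and no CHR word, is not among the 12. In the windows of the 8 mitotic regulators that have one, Cdc25a included, 7 held a CCAAT box (87.5%) and 6 a CHR word (75%). The groups of 12 and 6 windows, the E-box and the spacing were picked after the windows had been read, so the shares describe the members and carry no test. A word found is not a bound site, and a word not found says only that those letters are not in that window.

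Nearly the whole set was present. In both libraries, 44 of the 46 members reached 1 TPM, beside a background of 62.1% of 21474 protein-coding genes, and the same 44 reached 5 TPM. The median member stood at 40.4 TPM in replicate 1 and 40.0 TPM in replicate 2 (40.2 ± 0.283). The median of the 13333 detected protein-coding genes was 20.97 and 21.69 TPM. Above the median of those genes lay 33 members, and 18 lay above 53.3 TPM, their upper quartile.

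**Figure D1:**
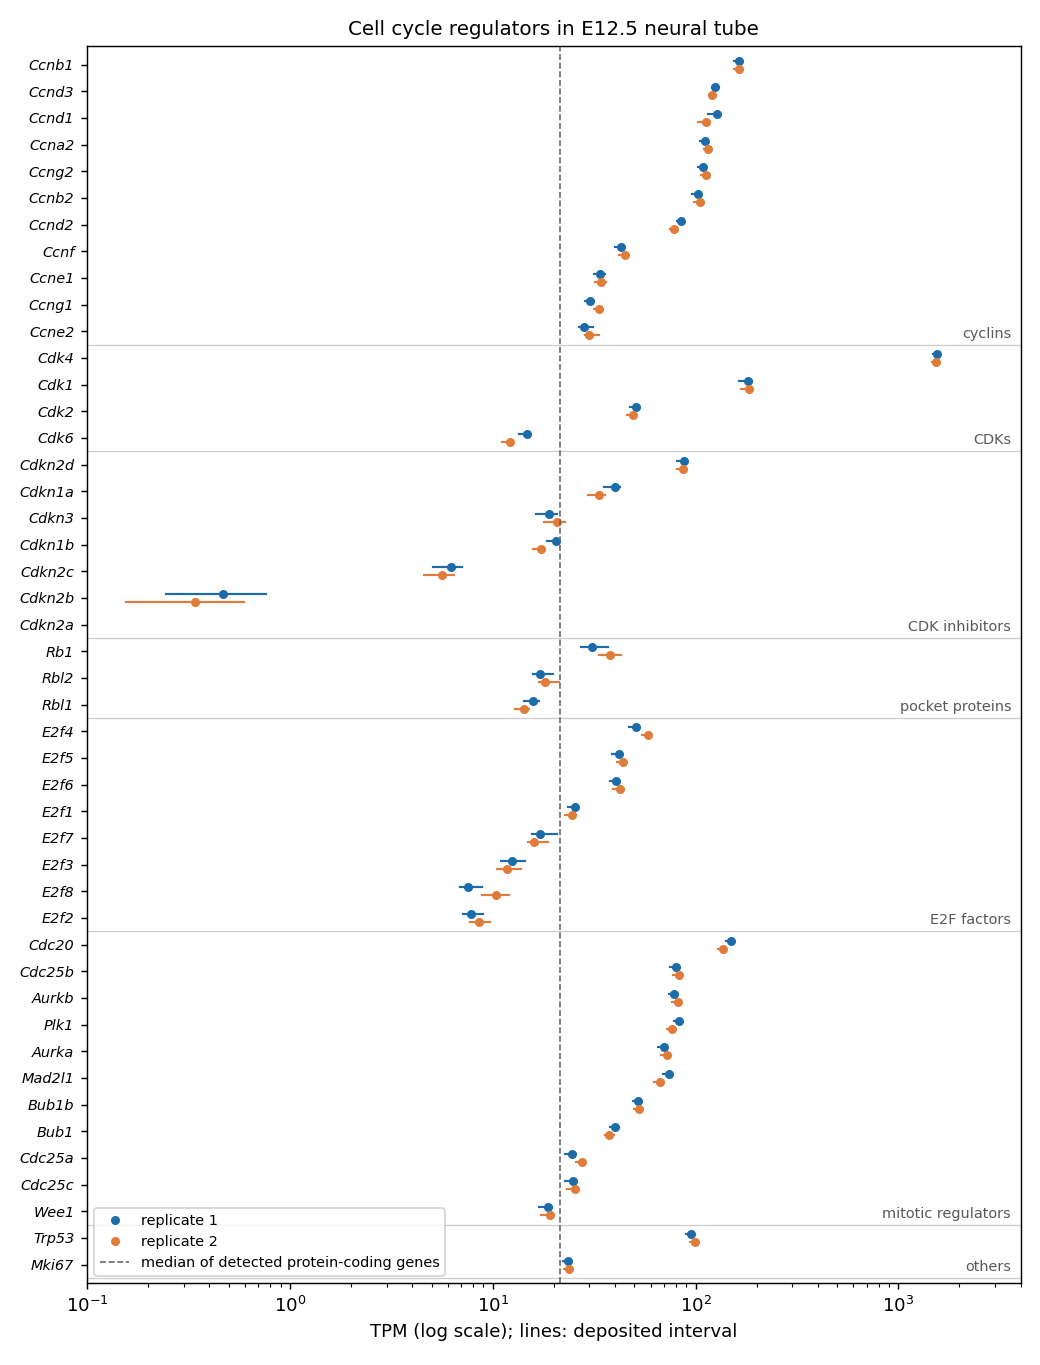
Level of each member by role, in TPM on a log scale. Points are the deposited values of replicate 1 (blue) and replicate 2 (orange), lines are the deposited intervals, and the dashed line is the median of detected protein-coding genes (21.4 TPM). Cdk4 lies far to the right at a mean of 1538 TPM, Cdkn2b is the only drawn member below 1 TPM, and Cdkn2a, listed at 0, has no point.

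All 11 cyclins were detected. By TPM of the gene, a higher group of 7 had means between 81.7 and 163 TPM. A lower group of 4 lay between 29.1 and 43.8 TPM. This split depends on the scale. By reads not corrected for length (CPM, counts scaled to the library total), Ccnb2 (mean 93.3 CPM), Ccnf (81.7 CPM) and Ccng1 (67.6 CPM) bridged it. On protein-coding transcripts alone, Ccnd1 (mean 64.5 TPM) lay between the groups. Ccnb1, the main mitotic B cyclin, led by TPM, with 163.1 TPM in replicate 1 and 163.5 TPM in replicate 2. By CPM, Ccnd2 (mean 285 CPM) stood above Ccnb1 (mean 228 CPM). The partner paralog of Ccnb1, Ccnb2, stood at 103 and 105 TPM. Ccna2, the cyclin of S phase and G2, stood at 111 and 115 TPM. Ccnf, an F-box protein that marks other proteins for destruction in G2, was lower at 42.8 and 44.8 TPM. The 4 cyclins of S phase, G2 and mitosis thus spanned 43.8 to 163 TPM, with replicates closer to each other than neighbours in the order.

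The D cyclins, which link growth signals to G1, were all present at similar levels per length. Ccnd3 stood at 125 TPM in replicate 1 and 121 TPM in replicate 2, Ccnd1 at 127 and 113 TPM, and Ccnd2 at 84.9 and 78.6 TPM. The deposited intervals of Ccnd1 and Ccnd3 overlapped within each library, so their order is not settled by these values. Of the summed D cyclin TPM, Ccnd1 held 37.0 ± 1.13%, Ccnd3 37.9 ± 1.15% and Ccnd2 25.2 ± 0.0212%. By reads not corrected for length (CPM, counts scaled to the library total), Ccnd2 held 48.8% of the family and Ccnd1 27.2%, so which D cyclin leads depends on the length correction.

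The E cyclins, partners of Cdk2 at the entry to S phase, were lower and nearly even, with Ccne1 at 33.7 TPM in replicate 1 and 34.1 TPM in replicate 2 and Ccne2 at 28.2 and 29.9 TPM. Of the G cyclins, Ccng2 (109 and 112 TPM) held 77.7 ± 0.889% of the pair and Ccng1 (30.2 and 33.5 TPM), a known target of p53, the rest. The difference in median log2(TPM + 1) between the mitotic cyclins (Ccna2, Ccnb1, Ccnb2 and Ccnf) and the G1 cyclins (Ccnd1, Ccnd2, Ccnd3, Ccne1 and Ccne2) was 0.40 ± 0.11. On the CPM scale it was -0.051 ± 0.054, so its sign depends on the length correction.

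Cdk4, the G1 kinase, was the highest of all members. Its gene (chr10:127063534-127067920, plus strand) stood at 1549 TPM in replicate 1 and 1526 TPM in replicate 2, which was 38.5 ± 0.180% of the TPM of the whole set. Its relative Cdk6, which pairs with the same D cyclins, stood at 14.7 and 12.1 TPM. Cdk4 thus held 99.1 ± 0.107% of the TPM of the pair, and 96.1 ± 0.508% of their CPM. Cdk1, the mitotic kinase, stood at 181 and 184 TPM, and Cdk2, the kinase of S phase, at 50.8 and 49.4 TPM. By CPM, too, Cdk4 ranked first of the 46.

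Much of the TPM of Cdk4 was assigned to short transcripts that are not typed as protein-coding. In the transcript tables, Cdk4-209, a retained-intron transcript of 468 nucleotides, held 41.8% of the TPM of the gene in replicate 1 and 40.2% in replicate 2. It lies at chr10:127066076-127067235, and 443 of its 468 nucleotides are also exon of protein-coding Cdk4 transcripts. Cdk4-208, a transcript typed for nonsense-mediated decay, shares all of its 924 nucleotides with them and held 18.8% and 19.9%. The protein-coding transcripts summed to 468 TPM in replicate 1 and 463 TPM in replicate 2. They held 45.5% and 46.5% of the expected counts of the gene. On coding transcripts alone Cdk4 was still the highest member, at 17.4% of the set, and still held 97.2 ± 0.348% of the pair with Cdk6. The neighbour Tspan31 (111 TPM in replicate 1 and 100.2 TPM in replicate 2), shares 641 exon nucleotides with Cdk4 on the opposite strand. No source at hand says that strand was used in counting, and reads of the shared stretch cannot then be told apart.

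Ccnd1 was split in the same way. Its 1 other transcript, Ccnd1-202, is a retained-intron model of 470 nucleotides at chr7:144937295-144938197, with 375 nucleotides shared with coding exons, and it held 46.3% of the TPM of the gene in replicate 1 and 46.4% in replicate 2. The coding transcript Ccnd1-201 stood at 68.3 TPM in replicate 1 and 60.7 TPM in replicate 2 and held 91.9% of the expected counts in each. On coding transcripts the D cyclins ordered as Ccnd3 (45.4 ± 1.07% of the family), Ccnd2 (30.5 ± 0.191%) and Ccnd1 (24.1 ± 0.878%). LTO1, on the opposite strand, shares 1100 exon nucleotides with Ccnd1 and stood at 27.7 and 29.7 TPM.

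Across the set, 7 of the 44 members at 5 TPM or more had at least 25% of their TPM on such other transcript types in both libraries, beside a background of 19.1% of 10812 protein-coding genes at that level. Apart from Cdk4 (69.7 ± 0.0865%) and Ccnd1 (46.3 ± 0.0305%), they were Rbl1 (51.3 ± 2.69%), E2f7 (42.3 ± 8.30%), Rbl2 (39.7 ± 1.49%), Cdk1 (37.3 ± 5.20%) and Rb1 (32.1 ± 3.04%). All 3 pocket protein genes are among these 7. By expected counts the other types held less. Coding transcripts held 96.0% of the counts of Rb1 in replicate 1 and 96.3% in replicate 2. They held 91.8% and 89.8% for Rbl2, 68.0% and 68.7% for Rbl1, 87.5% and 83.9% for Cdk1, and 76.3% and 82.0% for E2f7. The tally of 7 genes was made after the transcript values had been seen.

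**Figure D2:**
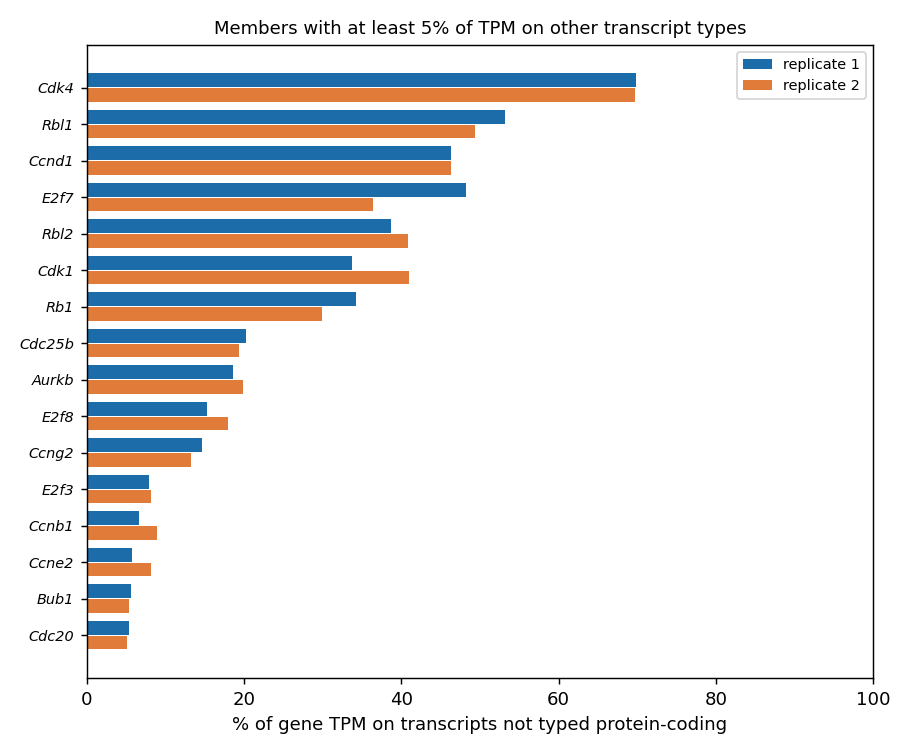
Percent of the TPM of a gene on transcripts not typed protein-coding, for members with a mean of at least 5%. Bars give replicate 1 (blue, upper) and replicate 2 (orange, lower), from 0. Cdk4 stands highest near 70% in both libraries, and 7 members exceed 25% in both.

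The transcript that held most TPM was the same in both libraries for all but 1 of the 32 members with several transcripts at 5 TPM or more, beside a background of 7.39% of 8304 genes whose leading transcript differed. The exception was Cdkn2c, where Cdkn2c-201 held 51.8% in replicate 1 and 39.7% in replicate 2, both coding forms being present at 2.22 to 3.38 TPM. The leading transcript held under 60% in both libraries in 6 of the 32 (Ccnd1, Ccng2, Cdk4, Cdkn1a, Rbl1 and E2f7), against a background of 36.1%. Cdk2-201 held 74.9% of Cdk2 in replicate 1 and 79.8% in replicate 2, the longer coding form Cdk2-202 the rest. Cdc25b-202 held 69.5% and 68.4% of Cdc25b, and E2f3-201 held 92.0% and 91.7% of E2f3. In Ccng2, both coding transcripts were well represented, with 49.2% and 46.5% on Ccng2-201 and 36.1% and 40.2% on Ccng2-202.

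The 7 CDK inhibitors had a median of 18.2 ± 1.10 TPM, and 5 were detected. INK4 proteins block Cdk4 and Cdk6 alone, whereas Cip/Kip proteins bind several cyclin and CDK pairs. Of the 4 INK4 genes, Cdkn2d stood at 87.5 TPM in replicate 1 and 86.5 TPM in replicate 2 and held 93.2 ± 0.471% of their summed TPM. Cdkn2c stood at 6.22 and 5.61 TPM. Cdkn2b stood at 0.47 and 0.34 TPM, on 12 and 9 counts, and Cdkn2a was listed at 0 in both libraries. A count of 0 allows up to 0.0949 CPM in replicate 1 and 0.0895 CPM in replicate 2 (3 counts per library), which covers counting error only. The 2 undetected members lie near each other in the genome, at chr4:89274471-89294653 for Cdkn2a and chr4:89306299-89311039 for Cdkn2b.

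Of the Cip/Kip genes in the set, Cdkn1a (p21, a p53 target) stood at 39.9 TPM in replicate 1 and 33.6 TPM in replicate 2, and Cdkn1b (p27) at 20.4 and 17.4 TPM. Cdkn3, a phosphatase that acts on CDKs, stood at 19.0 and 20.8 TPM. The INK4 genes together held 62.7 ± 2.47% of the TPM of the 6 INK4 and Cip/Kip members. That share leaves out Cdkn1c (p57), the other Cip/Kip gene, which is not a member and stood at 824 TPM in replicate 1 and 856 TPM in replicate 2. With Cdkn1c added, the INK4 genes held 9.44 ± 0.266% and Cdkn1c held 84.9 ± 1.02%. The addition was made after seeing the data. By TPM, Cdkn1c exceeded every member but Cdk4, and by CPM (934 in replicate 1 and 949 in replicate 2) it exceeded Cdk4 (752 and 735 CPM) too.

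The pocket proteins, which hold E2F factors in check, were modest in level. Rb1 stood at 30.9 TPM in replicate 1 and 37.7 TPM in replicate 2, Rbl2 (p130) at 17.1 and 18.2 TPM, and Rbl1 (p107) at 15.8 and 14.2 TPM. Rb1 held 51.1 ± 3.74% of the family, and 56.3 ± 4.44% on coding transcripts. Rb1-206, a processed transcript of 408 nucleotides that shares no base with coding Rb1 exons, held 23.5% of the gene in replicate 1 and 10.1% in replicate 2. Lpar6, on the opposite strand, shares 408 exon nucleotides with Rb1 and stood at 11.01 and 11.58 TPM.

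All 8 E2F genes were detected, and the forms classed as repressors led. E2f4 stood at 50.8 TPM in replicate 1 and 58.1 TPM in replicate 2, E2f5 at 41.9 and 44.1 TPM, and E2f6, which represses without a pocket protein, at 40.8 and 42.3 TPM. Of the activators, E2f1 stood at 25.4 and 24.7 TPM, E2f3 at 12.5 and 11.8 TPM, and E2f2 at 7.81 and 8.57 TPM. The atypical repressors E2f7 (17.1 and 16.0 TPM) and E2f8 (7.57 and 10.4 TPM) were low as well. E2f4 and E2f5 together held 46.4 ± 1.25% of the TPM of the family, the activators 21.6 ± 1.07%, E2f6 19.8 ± 0.283% and the atypical pair 12.2 ± 0.105%. By CPM the activators held 30.5 ± 1.60% and E2f4 with E2f5 held 34.5 ± 1.02%, so the order of these groups was the same and the gap smaller.

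**Figure D3:**
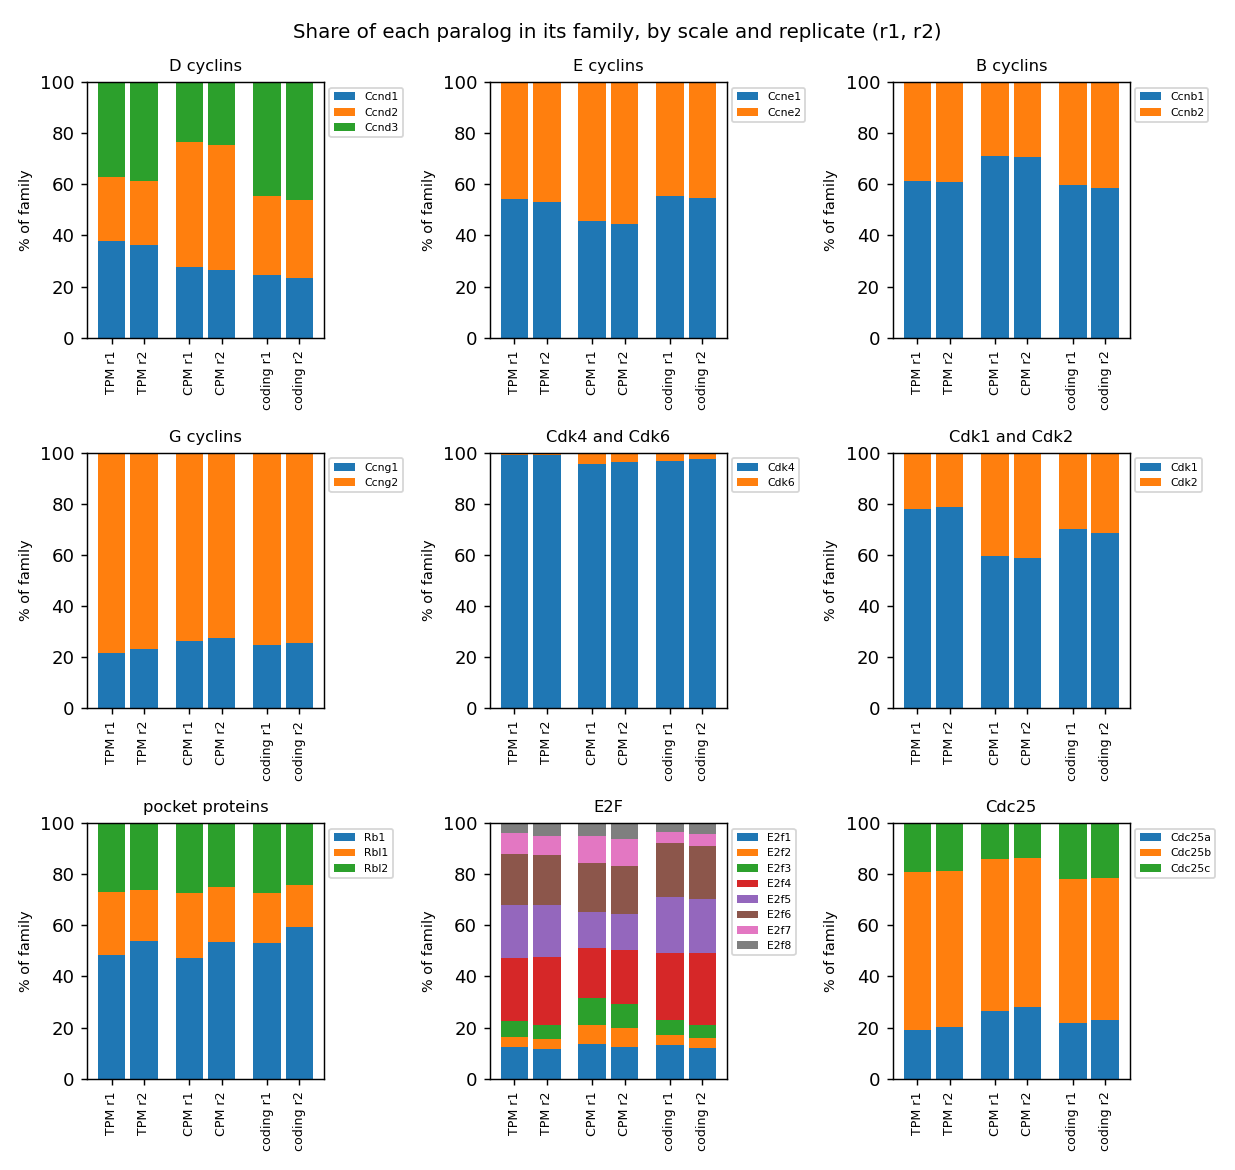
Share of each paralog in its family, in percent, as stacked bars for replicate 1 (r1) and replicate 2 (r2) on 3 scales, namely TPM of the gene, CPM and TPM of coding transcripts. Replicates are close on each scale, while the D cyclin shares move with the scale (Ccnd2 25.2% by TPM and 48.8% by CPM).

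Mitotic regulators were high as a group, from 18.9 to 143 TPM, and all 11 were detected. Cdc20, which activates the anaphase-promoting complex, led with 149.8 TPM in replicate 1 and 137 TPM in replicate 2. The kinases that build the spindle and split the cell lay close together, with Plk1 at 82.9 and 76.6 TPM, Aurkb at 78.7 and 81.6 TPM and Aurka at 69.8 and 72.3 TPM. Of the spindle checkpoint genes, which hold Cdc20 until all chromosomes are attached, Mad2l1 stood at 74.2 and 66.8 TPM, Bub1b at 51.9 and 52.6 TPM and Bub1 at 40.1 and 37.6 TPM.

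The Cdc25 phosphatases remove the inhibitory phosphate that the kinase Wee1 places on Cdk1 and Cdk2. Cdc25b stood at 80.0 TPM in replicate 1 and 82.4 TPM in replicate 2 and held 61.3 ± 0.636% of the Cdc25 TPM. Cdc25a stood at 24.7 and 27.6 TPM, Cdc25c at 24.9 and 25.4 TPM, and Wee1 at 18.7 and 19.2 TPM. The order of Cdc25a and Cdc25c is not the same in the 2 libraries. The difference in median log2(TPM + 1) between the mitotic regulators and the 7 CDK inhibitors was 1.83 in replicate 1 and 1.88 in replicate 2 (1.85 ± 0.040). It was 3.09 ± 0.082 by CPM, 2.38 ± 0.055 by list means and 1.68 ± 0.062 without the members under 1 TPM. Its size thus depends on the length correction. Cdkn1c is not among the 7 inhibitors, and the difference was not computed with it.

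Mki67, the gene of the proliferation antigen Ki-67, stood at 23.6 TPM in replicate 1 and 23.8 TPM in replicate 2. The transcript is long, and by CPM Mki67 ranked 7 of the 46. Trp53, the gene of p53, stood at 95.5 and 99.7 TPM.

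Partners of the members were nearly all present as well. Of the DP partners and the DREAM complex, which joins pocket proteins and E2F factors at promoters of cell cycle genes, 10 of 10 were detected, led by Rbbp4 (378 ± 9.09 TPM), Tfdp1 (120 ± 1.67 TPM) and Tfdp2 (44.2 ± 4.39 TPM). Of the anaphase-promoting complex and its regulators, 18 of 18 were detected, with a median of 113 ± 1.07 TPM. These were led by Anapc5 (326 ± 6.46 TPM) and the ubiquitin-conjugating enzymes Ube2s (323.5 ± 2.45 TPM) and Ube2c (269 ± 16.2 TPM). Among CDK adaptors and kinases, 6 of 6 were detected, with Cks1b (216 ± 11.4 TPM) and Cks2 (148 ± 1.77 TPM), small subunits of CDKs, after Cdkn1c.

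Of the spindle checkpoint and passenger complex partners, 13 of 14 were detected, with Bub3 (171 ± 2.69 TPM), Birc5 (145 ± 8.22 TPM) and Cdca8 (99.5 ± 0.212 TPM) highest. The paralog Aurkc stood at 0 TPM in replicate 1 and 0.13 TPM in replicate 2. Of 25 other cyclins and CDKs matched, 22 were detected. Ccnl2 (169 ± 1.27 TPM), Cdk16 (140 ± 12.1 TPM) and Ccni (126 ± 13.2 TPM) were highest, Ccnb3 was listed at 0 in both libraries and Cdk18 stood at 0.60 and 0.69 TPM. Of the regulators and targets of p53, 13 of 14 were detected, led by Bax (203 ± 7.25 TPM), Ei24 (99.3 ± 2.26 TPM) and Mdm2 (56.9 ± 6.82 TPM), while Trp73, a paralog of Trp53, stood at 0.40 and 0.12 TPM.

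The pools were then compared as the ratio of replicate 1 over replicate 2 on the log2(TPM + 1) scale, which understates differences of low genes. With 1 library a side, the ratio compares these libraries and not a condition. Among the 44 members that averaged 1 TPM or more, 0 differed by over 2-fold, beside a background of 1.43% of 15735 genes. Their median ratio was -0.020, against -0.031 over all those genes, and it was 0.019 with TMM-scaled counts. The ratios of the members had an SD of 0.13, against 0.20 over all genes in the same range of levels. That range runs from the lowest of these members, Cdkn2c (mean 5.915 TPM), to the highest, Cdk4 (1538 TPM). Within it the genes were not matched to the members for level.

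The deposited TPM intervals of the 2 libraries did not overlap for 9 of the 44 members (20.5%), beside a background of 14.3%. Higher in replicate 1 were 6 of them (13.6%; background 4.19%), namely Ccnd2, Cdk6, Cdkn1b, Cdc20, Plk1 and Mad2l1. Higher in replicate 2 were 3 (6.82%; background 10.1%), namely E2f4, E2f8 and Cdc25a. By the deposited FPKM intervals, 10 of the 44 members were apart in either direction, beside a background of 13.2% of genes. Of these members 8 were higher in replicate 1 and 2 in replicate 2, and no background by direction was computed for FPKM. These backgrounds, like that of the 2-fold count, take genes from a mean of 1 TPM. All 44 members averaged 5 TPM or more, so the backgrounds are not matched to them for level. The intervals cover the assignment of reads within a library, not the spread between pools, and their level is not stated.

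E2f8 had the largest ratio in size, -0.41, with 487 expected counts in replicate 1 and 657 in replicate 2. Its CPM ratio was -0.35 (exact 95% binomial interval -0.52 to -0.18, which like the others given here covers counting error only). Rb1 followed with -0.28 and a CPM ratio of -0.34 (-0.43 to -0.26). Its TPM intervals overlapped for the gene. Those of its coding transcript Rb1-201 did not (18.8 to 20.6 TPM in replicate 1 and 24.6 to 26.7 TPM in replicate 2). Cdk6 had the largest positive ratio, 0.26, with 1064 counts in replicate 1 and 911 in replicate 2 and a CPM ratio of 0.31 (0.18 to 0.44). Each of these differences is under 1.5-fold.

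Within families, all 3 D cyclins were higher in replicate 1 on both scales (TPM ratios 0.17 for Ccnd1, 0.11 for Ccnd2 and 0.046 for Ccnd3). Of the 5 detected CDK inhibitors, 4 were higher in replicate 1, Cdkn1a (0.24) and Cdkn1b (0.22) most, and Cdkn3 was lower (-0.13). The 4 mitotic cyclins were lower in replicate 1 by TPM, by at most 0.064, but by CPM Ccnb1 (0.036) and Ccnb2 (0.0019) had ratios above 0. Cdk1 likewise had a TPM ratio of -0.021 and a CPM ratio of 0.13 (0.064 to 0.20). Of all members, 18 ratios (40.9%) were above 0 by TPM, beside a background of 41.2%.

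Markers of neighbouring tissues also differed between the pools. All 6 skeletal muscle markers were higher in replicate 1 (median ratio 0.33), summing to 320.4 TPM there and 235 TPM in replicate 2. All 6 sensory ganglion markers were lower in replicate 1 (median ratio -0.54), summing to 425 TPM there and 601.5 TPM in replicate 2, and none of either list was at 0. Of the 6 neuron markers 5 were lower in replicate 1 and of the 6 progenitor markers 2 were. The part of these tissues in the differences of the members was not tested.

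**Figure D4:**
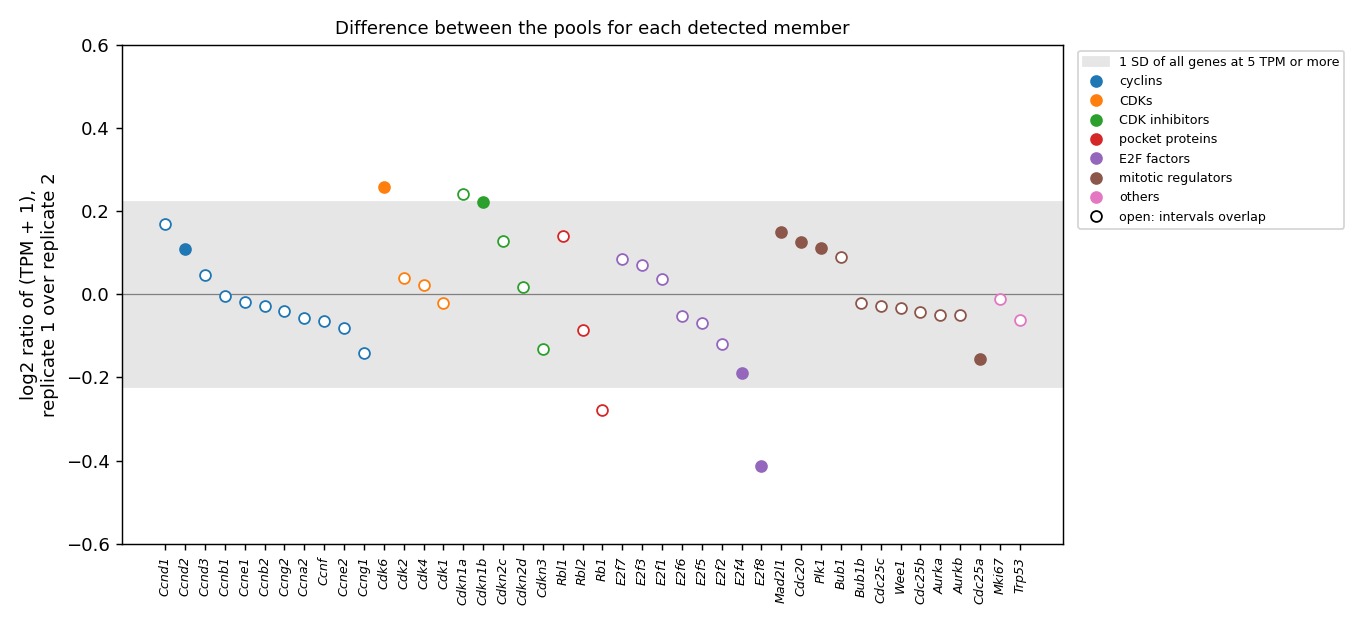
Log2 ratio of (TPM + 1), replicate 1 over replicate 2, for the 44 detected members by role, with 0 drawn as a line. Filled points have deposited intervals that do not overlap (9 members), open points overlap, and the grey band is 1 SD of all genes at 5 TPM or more (0.22). E2f8 lies lowest at -0.41 and Cdk6 highest at 0.26.

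Some values share reads with other loci. Ccnb1 has processed pseudogenes that match it closely, Ccnb1-ps over 1287 nucleotides at 99.2% identity (1.47 TPM in replicate 1 and 1.16 TPM in replicate 2) and Gm12856 over 1294 nucleotides at 98.1% (0.13 and 0.14 TPM). Ccnd3 has Ccnd3-ps (0.13 and 0.25 TPM) and Mad2l1 has Gm42430. The listed levels of the copies are small beside those of the genes, but how reads were split between them is uncertain. Exons on the opposite strand are shared between Ccna2 and Exosc9, Ccne2 and Ints8, Rbl2 and Aktip, and Rb1 and Rcbtb2, among others, so the levels of these members are uncertain in the same way as that of Cdk4.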

How the data were processed

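Total RNA-seq of neural tube at embryonic day 12.5 was deposited as a gene table and a transcript table for each of 2 libraries (1 group). Per the deposited read-me text, reads were aligned to mm10 with GENCODE M4. The program, and whether strand was used, are not given in the sources used here. The values named expected counts, TPM and FPKM are the authors' estimates per the file headers, as are each transcript's percent of its gene and the TPM and FPKM credibility intervals. The intervals surround a posterior mean, and the listed TPM lay outside its own interval for 2 of the 44 detected members in replicate 1 and 3 in replicate 2. The series is marked as superseded by a later one, not used here. The labels name no separate dissection or day, so the spread between pools may be partly technical. Counts of the pools lay further apart than sampling noise allows (chi-square per degree of freedom 7.35 over 17627 genes).

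Rows that are not mouse genes held 3.07% of counts in replicate 1 and 2.97% in replicate 2 and were left out of CPM. Names, biotypes and 1-based coordinates came from GENCODE M21 on GRCm38, matched by identifier without version. Transcripts typed protein-coding were summed as coding TPM. Overlaps are of M21 exons, and near copies are BLAST 2.17.0 matches of at least 95% identity over 300 nucleotides. Motif words were searched in RefSeq promoter windows, of which 36 of 42 matched an M21 transcript of the gene in the same orientation and 0 in the opposite one. TMM factors (edgeR 4.0.16) were 0.997 and 1.003, and DESeq2 1.42.0 size factors 0.969 and 1.03. Expected counts were rounded to whole numbers for both. Other steps used Python 3.11.15, pandas 2.3.3 and scipy 1.17.1. The ratio calculation was tried on simulated counts, while the shares were not tested in this way.

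All 46 members are named. Of each partner list, the 3 highest members and up to 2 under 1 TPM in both libraries are named. Transcripts are named where the leading one differed between libraries or held under 60% in both, and for Cdk2, E2f3 and Cdc25b. Of 184 list symbols 183 were matched. Cdk3 was not. The members and lists were chosen with earlier results of these data known. Alternatives covered the length correction, the estimate, the pseudocount, filters, scaling and each replicate alone. Coding transcripts alone and Cdkn1c among the inhibitors were added after the data had been seen.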

Additional observations from a re-analysis of the deposited data

How the results depend on the processing

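Over 13 results, 52 alternatives were run beside those that leave out 1 library. Of these, 27 stayed close to the value given (within 1 SD, within 1.5 times for counts, or within 0.1 on the log2 scale for the median ratio between pools, which has no SD), 22 moved by more and 3 reversed. The median ratio of the members between pools, -0.020, turned to 0.019 with TMM and 0.017 with DESeq2 size factors. The SD between 2 close libraries is small, so small shifts count as moved. Without the length correction (CPM), the mitotic cyclins minus the G1 cyclins reversed to -0.051. On that scale the median member was 63.8 CPM, the mitotic regulators minus the CDK inhibitors 3.09, Ccnd1 27.2% and Ccnd2 48.8% of the D cyclins, Cdk4 96.1% of Cdk4 and Cdk6, Ccnb1 71.0% of the B cyclins, the INK4 genes 57.1% of the inhibitors and the activators 30.5% of the E2F family. With coding transcripts alone (added later), these were a median of 39.6 TPM, 1.75 for mitotic regulators minus inhibitors, 0.72 for mitotic minus G1 cyclins, Ccnd1 24.1%, Ccnd2 30.5%, Cdk4 97.2% and Ccnb1 59.2%. With posterior mean TPM, the median member was 39.7 TPM and Ccnd2 held 24.9%. The mitotic regulators minus the inhibitors were 2.38 by list means, 1.91 with a pseudocount of 0.1 and 1.68 without members under 1 TPM. The mitotic minus the G1 cyclins were 0.54 by list means. With Cdkn1c (added later), the INK4 share was 9.44%. The cause of these shifts was not tested beyond the alternatives' own construction. With 2 libraries, a value from either alone lies less than 1 SD from the mean by construction, so leaving one out says nothing about stability; the number of detected members was 44 in each. The ratios between pools hold 1 library a side, so no replicate could be left out of them. No paired analysis was possible because the design holds 1 group. Depth limits Cdkn2b, on 12 and 9 counts, and Cdkn2a.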
